A study of Mus musculus with 3 samples.

Results

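The long lamina-associated domains (LADs) described here were the 328 autosomal intervals of at least 1000000 bp in the LAD list deposited with the sample titled LMNA, out of 2159 intervals listed there and 2004 on the autosomes. They were chosen by length alone, from a list that was itself made from these libraries. Levels inside them are therefore a description, with no test. The data came from wild-type C57BL/6 mouse embryonic fibroblasts, which are cultured connective tissue cells, transduced with a retrovirus for 1 of 3 proteins: a fusion of Dam to Lamin A, a fusion of Dam to Lap2b, or unfused Dam. Each of these groups, labelled Dam-Lamin A, Dam-Lap2b and Dam Only, had 1 sample, so no value has a replicate check and no p-value was computed. No file of the Dam Only sample was used here. The labels give no age, sex or number of embryos, and the cells kept their own Lamin A and Lap2b genes. DNA profiles hold no transcript levels, so the labelled cell type was not checked against markers.

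The nuclear lamina is a mesh of filament proteins under the inner nuclear membrane. Lamin A is one of these filament proteins, and Lap2b is a membrane protein that sits next to the mesh. Long, mostly silent stretches of chromosomes touch the lamina and are called LADs. DamID maps such contacts by fusing a peripheral protein to Dam, a bacterial enzyme that methylates the adenine of GATC, so that DNA near the protein gains methyl marks. The methylated GATC fragments are amplified and sequenced. Free Dam marks open chromatin throughout the nucleus and serves as the control.

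Each profile gave a log2 value for 6415372 features on 21 chromosomes, with a median length of 258 bp, spaced as fragments between GATC sites would be. A value above 0 means more fusion reads than reference reads for that fragment, up to a constant of the profile. Whole reads could be recovered from the values and summed to at least 139309593 Dam-Lamin A reads, 151526461 Dam-Lap2b reads and 153310931 reads of a reference that both profiles shared. The reference is presumed to be the Dam Only library, which no label or header states. Feature values were averaged in 10 kb bins of at least 5 features. The 328 long LADs held 69247 such bins with a median of 25 features each, and 2 further bins fell short of the minimum. In bins of long LADs that only the LMNA list held, profiles and lists went together crosswise. The 3104 bins of long LADs that the list labelled Lap2b left out averaged −0.01 in the Dam-Lamin A profile and 0.58 in the Dam-Lap2b profile, although the LMNA list alone held them. Bins that the Lap2b list alone held are not given here. On that list the Dam-Lap2b profile again had the smaller share of bins below 0, 0.582% against 1.31%. Lists or profiles may carry each other's label, which was not tested. If the profiles did, the values given under either label would belong to the other. If the lists did, the domains would. Every profile and list is therefore named by its label. For the number of domains, their levels, centre minus edge, bins below 0 in each profile and the profile difference along the chromosome, the rule was also run on the list labelled Lap2b, which held 292 autosomal LADs of 1 Mb or longer.

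The long LADs were few and made up most of the listed length. They were 16.4% of the autosomal LADs (328 of 2004; exact 95% interval 14.8 to 18.1%) and covered 692.6 Mb. That was 54.6% of the 1268.5 Mb listed on the autosomes and 28.7% of the 2415.3 Mb that the features spanned. Their median length was 1.71 Mb (95% interval 1.63 to 1.82 Mb), and the longest had 8.12 Mb. Of the 328, 118 had 1 to 1.5 Mb, 82 had 1.5 to 2 Mb, 78 had 2 to 3 Mb, 39 had 3 to 5 Mb and 11 had 5 Mb or more. Intervals given here for shares and medians over domains treat the domains as independent draws, although neighbouring domains are not independent. They measure neither the spread among domains nor the spread between cell preparations.

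The length limit cut through a continuous range. Just inside it lay chr14:68702980-69703325 (mm9), with mean log2 values of 1.14 in the Dam-Lamin A profile and 1.17 in the Dam-Lap2b profile. The next were chr18:21474376-22475615 at 1.09 and 1.17 and chr2:178165733-179167030 at 1.91 and 1.37. Just outside it lay chr4:14858764-15858738 at 1.07 and 1.38, chr4:127066321-128065803 at 1.55 and 0.93, and chr9:27799114-28794301 at 0.89 and 1.28. The levels on both sides of the limit overlapped in each profile.

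All 328 long LADs averaged above 0 in both profiles, and 287 of them (87.5%) averaged above 1 in both. The list was made from such values, so these counts describe the choice of members. The same counts for shorter domains are not given here. The lowest domains of 500 kb to 1 Mb averaged −0.37 in the Dam-Lamin A profile and 0.07 in the Dam-Lap2b profile. The median level was 1.38 in the Dam-Lamin A profile (95% interval 1.32 to 1.42; range 0.04 to 2.57) and 1.46 in the Dam-Lap2b profile (1.44 to 1.51; range 0.65 to 2.04). The shorter domains of the list sat lower, in the order of their length. Domains of 100 to 200 kb had medians of 0.37 and 0.51, those of 200 to 500 kb 0.71 and 0.78, and those of 500 kb to 1 Mb 1.06 and 1.17. Above 1 Mb the order by length ended in the Dam-Lamin A profile, where the medians from the shortest to the longest of the 5 length classes were 1.37, 1.32, 1.41, 1.37 and 1.53. In the Dam-Lap2b profile they still went up, through 1.37, 1.44, 1.53 and 1.55 to 1.61. Across the 328 domains Spearman's rho between length and level was 0.06 and 0.30 in these profiles. The levels of both profiles had a rho of 0.77 with each other over the same 328 domains, whose values share the reference reads.

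The 5 longest domains lay on both sides of the median long LAD in the Dam-Lamin A profile and above it in the Dam-Lap2b profile. The longest, chr3:41422840-49545228 (8.12 Mb), averaged 1.22 in the Dam-Lamin A profile and 1.5 in the Dam-Lap2b profile. The second, chr1:100093468-107516984 (7.42 Mb), averaged 1.63 and 1.71. The third, chr8:98482235-105736092 (7.25 Mb), was the highest of the 5 at 1.86 in both. The next, chr15:13328100-20560214 (7.23 Mb), averaged 1.23 and 1.55, and chr1:24778742-30823422 (6.04 Mb), 1.22 and 1.61. In all 5 the Dam-Lamin A value was at or below the Dam-Lap2b value.

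The highest and the lowest levels both belonged to domains under 2 Mb. In the Dam-Lamin A profile the 3 highest were chr4:143006937-144476739 at 2.57, chr10:128445454-129977041 at 2.47 and chr2:176383582-177398792 at 2.46, with 1.91, 2.04 and 1.72 in the Dam-Lap2b profile. The domain on chromosome 10 was also the highest in the Dam-Lap2b profile, where chr2:148715498-150135334 (2.02) and chr6:131377738-133053258 (2.01) followed, both at 2.27 in the Dam-Lamin A profile. Both profiles had the same 3 lowest members. They were chr8:6591096-8035328 at 0.04 and 0.65, chr4:29027863-30531954 at 0.13 and 0.73, and chr13:25409805-27102121 at 0.26 and 0.76. In these 3 the Dam-Lamin A profile averaged near 0 while the Dam-Lap2b profile stayed well above it, and 67 of 145, 63 of 150 and 52 of 169 bins lay below 0 in the Dam-Lamin A profile against 9, 3 and 7 in the other.

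**Figure D1:**
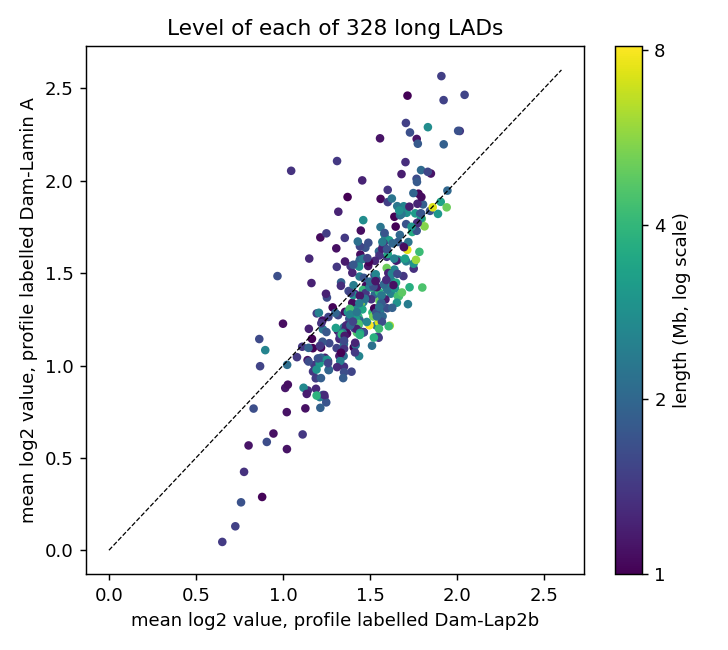
Mean log2 value of each of the 328 long LADs in the profile labelled Dam-Lap2b (x axis) and the profile labelled Dam-Lamin A (y axis), coloured by length in Mb on a log scale, with a dashed line where both are equal. Every domain is above 0 on both axes, the Dam-Lamin A values spread from 0.04 to 2.57 against 0.65 to 2.04 in the other profile, and the longest domains lie on or under the line.

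Inside a long LAD the signal climbed from both borders to a broad plateau. The median bin 10 to 20 kb outside a border, which had a value at 634 of the 656 borders, stood at −0.73 in the Dam-Lamin A profile and −0.28 in the Dam-Lap2b profile. The 1st bin inside, at all 656, stood at 0.32 and 0.65, and the bin centred at 45 kb at 1.06 and 1.08. The level over 400 to 500 kb from the border was 1.53 and 1.57. The Dam-Lamin A profile reached 80% of its plateau at 105 kb and 90% at 155 kb, and the Dam-Lap2b profile at 95 kb and 185 kb. Divided into 20 equal slices, the long LADs had medians of 0.90 and 0.99 in the 1st slice, 1.55 and 1.63 at their highest slices next to the middle, and 0.91 and 1.07 in the last. Proximal and distal ends, read along the chromosome, thus gave nearly mirrored curves.

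**Figure D2:**
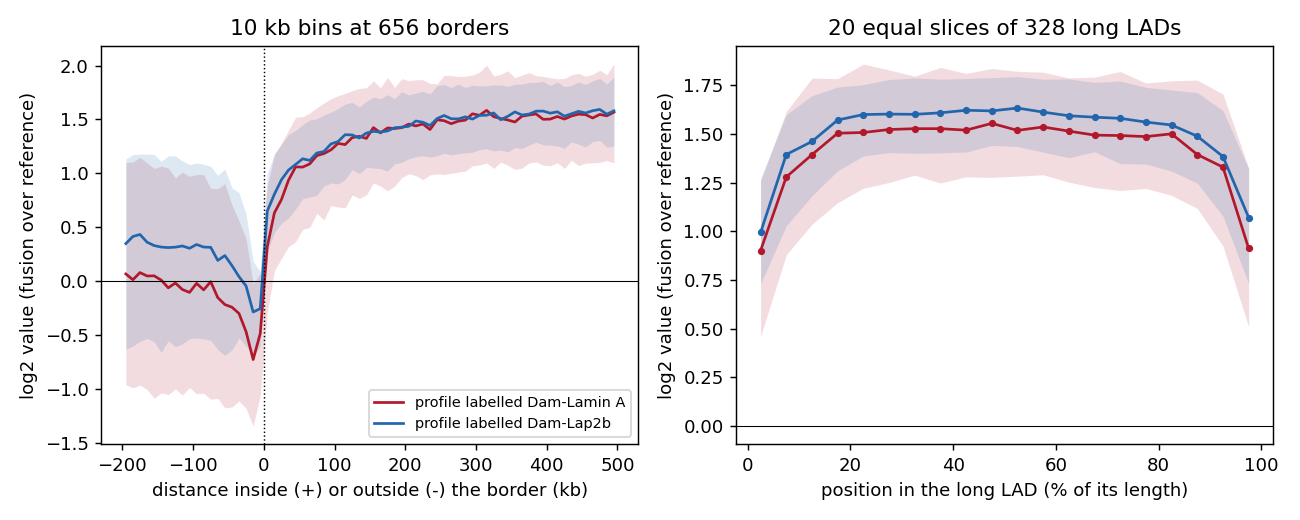
Left, median log2 value of 10 kb bins against distance inside (positive) or outside (negative) the 656 borders in kb; bins outside have values at fewer borders. Right, medians over 20 equal slices of the 328 long LADs against position in % of length. Red lines are labelled Dam-Lamin A, blue lines Dam-Lap2b, and shading spans the 25th to 75th percentile. Both profiles rise within the outer 100 to 200 kb and stay near 1.5 in the interior.

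The middle 20% of the length was set against the outer 100 kb at both borders of the same domain. The median difference was 0.63 in the Dam-Lamin A profile (95% interval 0.57 to 0.70) and 0.55 in the Dam-Lap2b profile (0.50 to 0.62), from levels of 1.5 against 0.87 and 1.61 against 1.02. The centre was above the edge in 304 of 328 domains (92.7%) in the Dam-Lamin A profile and in 314 (95.7%) in the Dam-Lap2b profile. Over all autosomal LADs of 500 kb or longer, the long ones included, the share was 88.5% and 90.7%. The difference was smaller in the LADs of 500 kb to 1 Mb, at 0.44 and 0.35, and larger in the 11 long LADs of 5 Mb or more, at 1.05 and 0.87, where the centre was above the edge in 11 of 11. With the 1 Mb rule on the list labelled Lap2b, the median difference was 0.42 in both profiles.

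Read numbers of the 3 libraries differed in how they ran from edge to centre. In the reference the median long LAD had 19.7 reads per kb at its centre and 32.3 at its edges, a ratio of 0.62 (25th to 75th percentile 0.53 to 0.75), and the centre was lower in 307 of 328 (93.6%). Dam-Lamin A reads stood at 61.3 and 57.4 per kb, a ratio of 1.05, and were lower at the centre in 131. Dam-Lap2b reads stood at 69.5 and 69.1 per kb, a ratio of 1.00, and were lower at the centre in 161. By these medians the reads of both fusions were similar at edge and centre, while reference reads were lower at the centre. Between them the fusion reads were not level. Within 50 kb of a border, at 100 to 200 kb and over 500 kb inside, Dam-Lamin A had 58.1, 70.7 and 59.9 reads per kb. Dam-Lap2b had 67.1, 75.3 and 68.3 in the same bins, and the reference 35.5, 27.9 and 19.7. Over all bins the reference had 23.0 reads per kb in long LADs, 36.0 in shorter LADs and 99.8 outside the list. Dam-Lamin A had 63.8, 68.6 and 44.4 there, and Dam-Lap2b 70.8, 71.6 and 47.4. These numbers are lower bounds, since a factor common to all reads of a feature is lost, and the part of counting noise in the shape was not tested.

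A few domains departed from the plateau. By the mean of both profiles, the largest difference of centre and edge belonged to chr4:109662108-111379844, at 1.76 in the Dam-Lamin A profile and 1.32 in the Dam-Lap2b profile. The 8.12 Mb domain on chromosome 3 followed at 1.71 and 1.36, with an edge mean of −0.35 in the Dam-Lamin A profile, and the 7.42 Mb domain on chromosome 1 at 1.54 and 1.37, the highest in the Dam-Lap2b profile. In 12 domains the centre was below the edge in both profiles. By the mean of both profiles the lowest was chr2:135199484-136308810, with a centre at −0.03 and edges at 1.05 in the Dam-Lamin A profile, and 0.52 and 1.15 in the Dam-Lap2b profile. Its differences were −1.08 and −0.63. The next were chr9:116347661-117944182, with −0.76 and −0.80, the lowest in the Dam-Lap2b profile, and chr10:108389090-109919277, with −0.37 and −0.50. Across the 328 domains the difference had a rho of 0.89 between profiles, which share the reference.

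Many long LADs had a listed neighbour close by. Of 656 borders, 648 had a listed neighbour on the chromosome, at a median gap of 106 kb, against 135 kb over all autosomal gaps. The gap was under 25 kb at 178 borders (27.5%, against 21.5% of all gaps) and 1 Mb or longer at 103. The neighbour was itself a long LAD at 186 borders (28.7%), while long LADs were 16.4% of all autosomal LADs. Adjacent long LADs are counted here from both sides. The gap was under 100 kb at 318 borders, so that bins this far outside often lay in the next listed domain. At wider gaps the median bin centred 85 kb outside stood at −0.89 in the Dam-Lamin A profile and −0.51 in the Dam-Lap2b profile. Joining intervals under 25 kb apart raised the share of the listed length in long LADs from 54.6% to 63.6%.

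Bins below 0 were rare inside long LADs, and their share was highest next to the borders. In the Dam-Lamin A profile 2641 of 69247 bins (3.81%) had a mean below 0, against 45.8% of all autosomal bins. In the Dam-Lap2b profile 544 (0.786%) did, against 42.3%, and 408 (0.589%) were below 0 in both profiles, against 39.4%. The list was made from such values, so these shares describe how cleanly the list was drawn. The share went down with the length of the domain, from 29.2% in the Dam-Lamin A profile at 100 to 200 kb through 17.7% and 9.82% in the next classes. It also went down with distance from the border inside the long LADs. In the Dam-Lamin A profile it was 20.9% within 50 kb, 9.79% at 50 to 100 kb, 5.84% at 100 to 200 kb, 3.36% at 200 to 500 kb and 1.62% beyond. In the Dam-Lap2b profile the same steps gave 5.34%, 2.38%, 1.13%, 0.595% and 0.274%. By number, most bins of long LADs lay more than 50 kb inside (65967 of 69247), and so did most bins below 0. The latter were 1957 of the 2641 in the Dam-Lamin A profile and 369 of the 544 in the Dam-Lap2b profile. Both were smaller parts than that of all bins.

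Internal dips were counted as runs of bins below 0 lying more than 50 kb inside a border. The Dam-Lamin A profile had 1229 of them in 255 of the 328 domains (77.7%, against 73.6% of all LADs of 500 kb or longer). The Dam-Lap2b profile had 304 in 147 domains (44.8%, against 45.2%). Dips of both profiles at the same place numbered 225, in 120 domains (36.6%; exact 95% interval 31.4 to 42.1%; against 36.0%). The share of long LADs with a dip was thus close to that of all LADs of 500 kb or longer, the long ones included. In LADs of 500 kb to 1 Mb alone it was 70.1% in the Dam-Lamin A profile, 45.5% in the Dam-Lap2b profile and 35.5% in both. The number per length was lower in long LADs. Per 10 Mb of domain there were 3.25 dips in both profiles in long LADs and 10.8 in those of 500 kb to 1 Mb. The profiles, which share the reference reads, overlapped unevenly. Of the Dam-Lap2b bins below 0, 74.0% were also below 0 in the Dam-Lamin A profile, and of the 1957 Dam-Lamin A bins below 0 only 273 were below 0 in the other. With the rule on the list labelled Lap2b, the share of bins below 0 was 1.31% in the Dam-Lamin A profile and 0.582% in the Dam-Lap2b profile.

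Most dips were narrow, measured as bins below 0 in both profiles, and few domains held many. Of the 225 dips in both profiles, 185 were a single 10 kb bin, 35 had 20 kb, 3 had 30 kb, 1 had 40 kb and 1 had 50 kb. The bins around a dip had medians of 0.01 in the Dam-Lamin A profile and 0.47 in the Dam-Lap2b profile. The plateaus stood at 1.53 and 1.57, so by these medians the surroundings of dips were low as well. A dip of 1 bin rests on about 22 features of 1 library per profile, the median of the inner bins below 0 in both. With bins of 20 kb the share of domains with a dip in both profiles was 16.2%. The 32 domains with the most dips held 118 of the 225 (52.4%), 51 domains held at least 2 and 8 held at least 5. At the other end, 24 domains had no bin below 0 in either profile. Their median length was 1.54 Mb, and the longest was chr16:38907094-42116531 (3.21 Mb), which averaged 1.68 in the Dam-Lamin A profile and 1.61 in the Dam-Lap2b profile.

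The widest dip covered 50 kb at chr6:47260001-47310000, with its middle 113 kb inside the distal border of chr6:43633339-47398398. Its 5 bins read −1.44, −0.97, −1.16, −0.85 and −0.28 in the Dam-Lamin A profile and −0.99, −0.03, −0.38, −0.20 and −0.03 in the Dam-Lap2b profile. The bins around it were at −0.65 and 0.08, so the Dam-Lamin A profile was already below 0 on both sides and only the Dam-Lap2b profile crossed 0. Together the 113 features held 1237 Dam-Lamin A reads, 2302 Dam-Lap2b reads and 3135 reference reads. The second, chr2:135680001-135720000, lay in the domain on chromosome 2 with the low centre, at −0.95 and −0.27, with 2487, 3642 and 4943 reads. The others were chr4:29450001-29480000 at −1.46 and −0.21, chr9:117140001-117170000 at −0.39 and −0.79, and chr13:18880001-18910000 at −0.91 and −0.18. The dip on chromosome 9 was deeper in the Dam-Lap2b profile, and its last bin held 5394 reference reads against 2001 and 633 of the fusions.

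**Figure D3:**
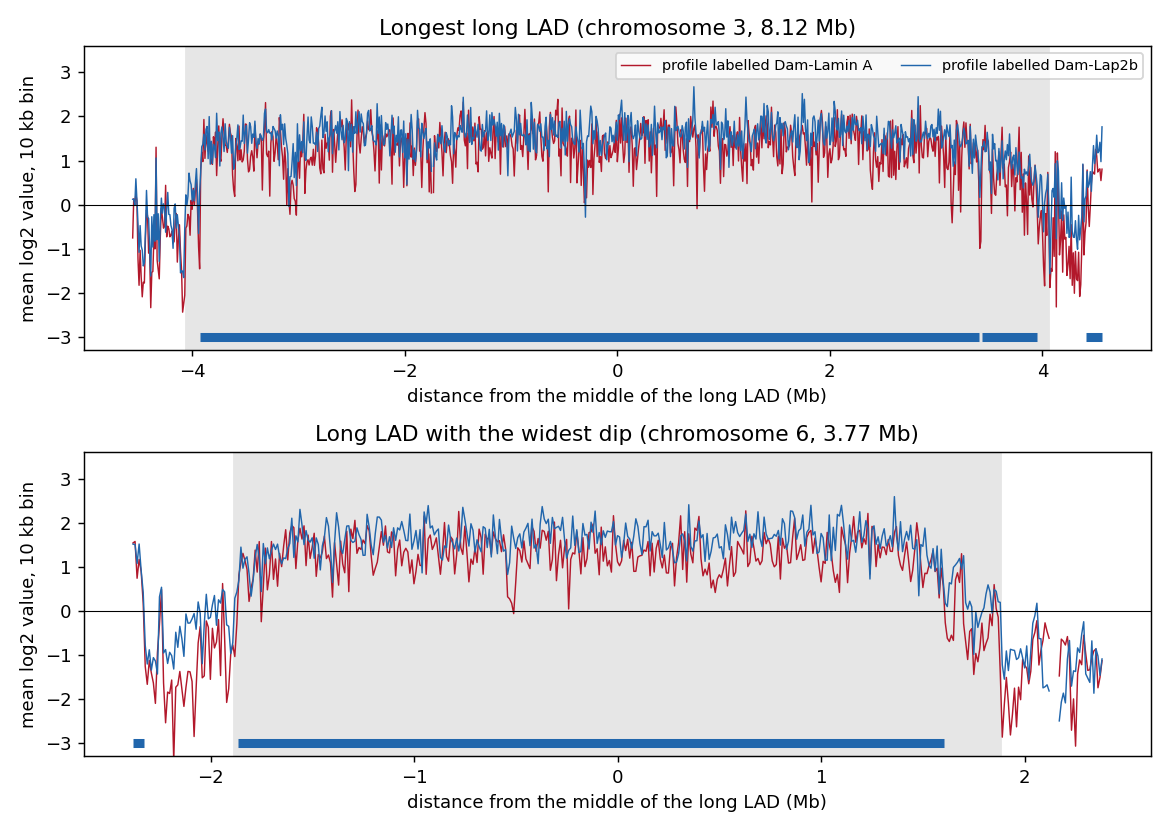
Mean log2 value of 10 kb bins (y axis) against distance from the middle of the domain in Mb for the longest long LAD (8.12 Mb, above) and the long LAD with the widest dip in both profiles (3.77 Mb, below). Red lines are labelled Dam-Lamin A and blue lines Dam-Lap2b, with the listed domain in grey and the blue bars the intervals of the list labelled Lap2b. Both domains form plateaus between 1 and 2, and the lower one steps down in its last part, where the Lap2b list ends.

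The reads behind the bins below 0 are given as a description, since these bins were picked by the ratio of the same reads. More than 50 kb inside the borders, 273 such bins had 88.6 reference reads per kb, against 21.6 in the 63914 bins above 0 in both profiles and 99.8 outside the list. They had 48.5 Dam-Lamin A reads and 63.0 Dam-Lap2b reads per kb, against 65.0 and 71.3 in the bins above 0. In the 1684 bins below 0 in the Dam-Lamin A profile alone, Dam-Lamin A reads stood at 29.4 per kb, Dam-Lap2b reads at 62.3 and reference reads at 39.6. GATC fragments averaged 499 bp there, 436 bp in the bins below 0 in both profiles and 386 bp in bins above 0 in both. In bins of a fixed width longer fragments mean fewer features, with medians of 20, 22 and 25 in the same order. The part of fragment length or feature number in the dips was not tested. Of the 273 bins below 0 in both profiles, 80.2% lay outside the list labelled Lap2b, against 3.23% of all bins more than 50 kb inside. Of the 225 dips, 177 had their middle outside it. The domains with the largest shares of bins below 0 in both profiles were chr2:135199484-136308810 (10.8%), chr5:48559530-50145817 (6.92%) and chr13:4063040-5175831 (6.25%).

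The list labelled Lap2b covered nearly all of the long LADs. It overlapped every one of them and held 661.6 Mb of their length, or 95.5%. No overlap was found for 2 of 391 LADs of 500 kb to 1 Mb (0.512%). The same held for 10.3% of LADs at 200 to 500 kb and 37.1% at 100 to 200 kb. The median long LAD was covered to 97.6% (95% interval 97.1 to 98.1%). Cover of at least 90% was reached by 274 of 328 (83.5%; exact 95% interval 79.1 to 87.4%), against 57.0% of all autosomal LADs of the LMNA list. By length the share was 41.7% at 100 to 200 kb, 54.2% at 200 to 500 kb and 63.7% at 500 kb to 1 Mb. Domains without any overlap count here as not covered, and they were most frequent in the shortest class. A border shift of a given distance is a smaller share of a longer domain, and its part in this order was not tested. Whole cover ran the other way and was found in 26 long LADs (7.93%), against 20.03%, 22.5% and 14.6% of these shorter classes. Cover under 50% was found in 2 long LADs.

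The cover was often broken into several intervals. The Lap2b list placed 599 pieces in the 328 domains. Exactly 1 interval overlapped 157 of them (47.9%), fully or in part, and 69 (21.0%) held 3 or more. In LADs of 500 kb to 1 Mb these shares were 69.1% and 6.14%. Of the 11 domains of 5 Mb or more, 0 were overlapped by only 1 interval and 9 held at least 3. The part of domain length in these counts was not tested. Even so, 254 of the 328 (77.4%) held 1 piece of 1 Mb or longer. The uncovered 31.0 Mb fell into 387 stretches at the borders, with 19.8 Mb in all, and 271 internal stretches, with 11.2 Mb in 171 domains. The median internal stretch had 17.8 kb, and 165 of 271 (60.9%) were under 25 kb. Over these stretches the Dam-Lamin A profile had a median of −0.06 and the Dam-Lap2b profile 0.72, and 56.5% and 6.69% were below 0.

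The 3 longest internal stretches left out by the Lap2b list showed the same order of the profiles. They were chr2:135435539-135815955 (380 kb) at −0.59 in the Dam-Lamin A profile and 0.16 in the Dam-Lap2b profile, chr4:85426152-85722757 (297 kb) at 0.09 and 0.70, and chr8:7058904-7319959 (261 kb) at 0.12 and 0.76. The least covered domains were chr8:6591096-8035328 (38.7%), chr13:4063040-5175831 (48.8%) and chr4:12247142-13274719 (50.2%). Their levels were 0.04, 0.57 and 0.29 in the Dam-Lamin A profile and 0.65, 0.80 and 0.88 in the Dam-Lap2b profile. Over the 328 domains the Dam-Lamin A level and the cover had a rho of 0.55. Bins inside the Lap2b list averaged 1.48 and 1.54.

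**Figure D4:**
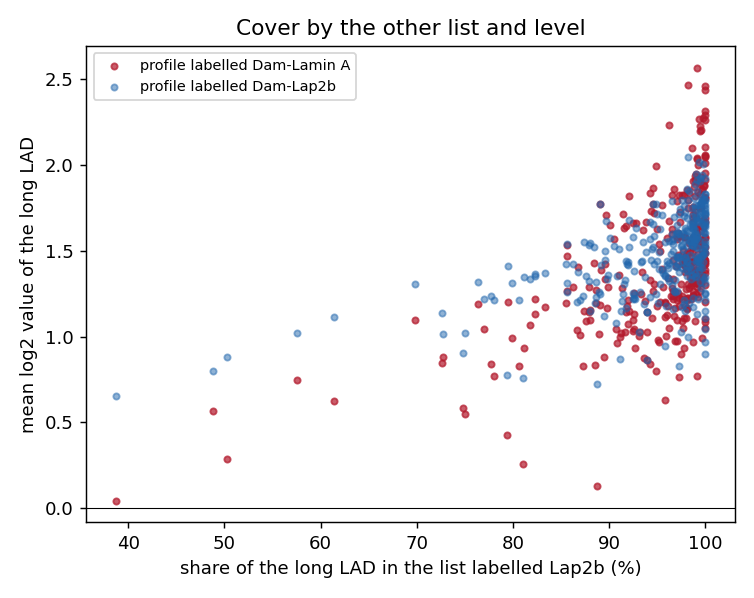
Mean log2 value of each of the 328 long LADs (y axis) against the share of its length in the list labelled Lap2b in % (x axis). Red points are labelled Dam-Lamin A and blue points Dam-Lap2b. Most domains crowd above 90%, and the domains below 60% lie low in both profiles, lower in the Dam-Lamin A profile.

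Every autosome held long LADs, from 6 on chromosome 19 and 7 on chromosome 15 to 25 on chromosome 1 and 26 on chromosome 2. They took the largest share of the span on chromosomes 14 (36.8%), 6 (36.7%) and 16 (35.9%), and the smallest on chromosomes 19 (17.5%), 9 (18.7%), 13 (19.7%) and 11 (21.2%). The median Dam-Lamin A level per chromosome ranged from 1.18 on chromosome 16 to 1.69 on chromosome 17. Dips in both profiles ranged from 0.744 per 10 Mb of long LAD on chromosome 6 to 7.80 on chromosome 13. Mouse autosomes have their centromere next to the start, so the start of the coordinates is here called proximal and the end distal. The middle of 153 of the 328 long LADs (46.6%; exact 95% interval 41.1 to 52.2%) lay in the distal 50% of the span, against 50.8% of all autosomal LADs of the list. From proximal to distal, each 25% of the span held 93, 82, 83 and 70 of them.

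Level went with the position on the chromosome, and more so in the Dam-Lamin A profile. From the proximal to the distal 25% of the span, the median Dam-Lamin A level of the long LADs was 1.20, 1.30, 1.48 and 1.79. The median Dam-Lap2b level was 1.39, 1.48, 1.49 and 1.59. Across the 328 domains the position had a rho of 0.65 with the Dam-Lamin A level and of 0.33 with the Dam-Lap2b level. The 10 domains that started within 3 Mb of the first feature had a median Dam-Lamin A level of 1.14 (range 0.57 to 1.43). The 9 that ended within 3 Mb of the last had 1.91 (1.58 to 2.47), with no overlap of the ranges. In the Dam-Lap2b profile these groups had medians of 1.33 (0.80 to 1.48) and 1.68 (1.05 to 2.04), and the ranges overlapped.

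The difference between the profiles changed along the chromosome. Over all 328 domains, 213 (64.9%) were lower in the Dam-Lamin A profile than in the Dam-Lap2b profile, against 63.7% of all autosomal LADs. In the proximal 25% of the span 85 of 93 were lower, with a median difference of −0.22. In the next 25% 74 of 82 were lower, at −0.20, and after that 42 of 83, at −0.00. In the distal 25% 58 of 70 were higher, at 0.19, and in the last 10% of the span 25 of 28, at 0.28. The distal median minus the proximal median of these 25% bands was 0.41. Which profile is higher depends on how the features of a bin are averaged. With each feature weighted by its length the differences were −0.64 in the proximal and −0.23 in the distal 25%, and the change between them was again 0.41.

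This change along the chromosome was found on nearly every autosome. The median difference over the distal 50% of the span was above that over the proximal 50% on 18 of 19 chromosomes, by a median of 0.30 and by up to 0.66, on chromosome 5. The exception was chromosome 16, at −0.13, and chromosome 14 came next at 0.03. The largest differences of single domains lay near distal ends. They were chr4:151948765-153313339, at 2.05 in the Dam-Lamin A profile and 1.05 in the Dam-Lap2b profile, chr5:141369936-142788819, at 2.11 and 1.31, and chr2:176383582-177398792, at 2.46 and 1.72. These 3 were chosen after their values were seen. Shares differed among the length classes. The difference was below 0 in 58.5%, 56.1% and 66.7% of the domains of 1 to 1.5, 1.5 to 2 and 2 to 3 Mb. Of the 11 domains of 5 Mb or more, 11 were lower in the Dam-Lamin A profile, and of those of 3 to 5 Mb 35 of 39, including 6 of 6 and 11 of 14 in the distal 50% of the span. The median difference did not follow the order of length, at −0.06, −0.05, −0.11, −0.17 and −0.11 from the shortest to the longest class.

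The change was not particular to long LADs. In the bins of shorter LADs the mean difference from the proximal to the distal 25% was −0.24, −0.20, −0.02 and 0.22, and in bins outside the list −0.23, −0.18, −0.09 and 0.17. In long LADs it was −0.23, −0.19, −0.03 and 0.17. Between the proximal and distal bands of the long LADs, Dam-Lamin A reads went from 54.0 to 84.6 per kb, Dam-Lap2b reads from 67.2 to 78.8 and reference reads from 23.3 to 24.4. The Dam-Lamin A reads changed the most of the 3 libraries. With 1 library of each fusion, a property of the protein and one of the library cannot be told apart.

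**Figure D5:**
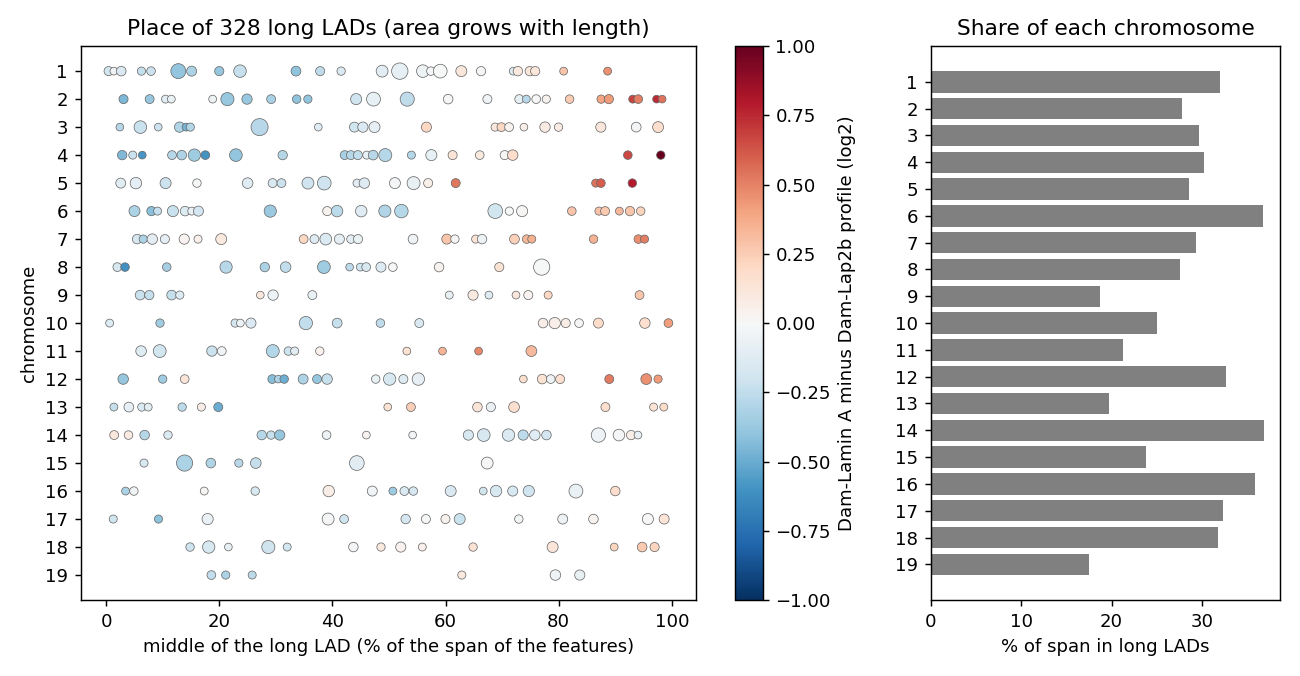
Left, each of the 328 long LADs as a disc (area grows with length) at its middle in % of the span of the features (x axis) on its chromosome (y axis), coloured by the mean log2 value of the profile labelled Dam-Lamin A minus that of the profile labelled Dam-Lap2b. Right, the share of each chromosome's span in long LADs in %. Blue (Dam-Lamin A lower) prevails near the start and red near the end of most chromosomes, and the shares run from 17.5% on chromosome 19 to 36.8% on chromosome 14.

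By the median, the fragments that carried these values were slightly shorter in long LADs. The median length of a GATC fragment was 248 bp in the median long LAD (95% interval 246 to 252 bp), 256 bp in shorter LADs (254 to 258 bp) and 278 bp in stretches of 100 kb or more between LADs (277 to 279 bp). By the mean over bins, fragments had 389 bp in long LADs, 387 bp in shorter LADs and 410 bp outside the list, so long and shorter LADs came in the other order. Among long LADs the fragment length had a rho of −0.12 with the Dam-Lamin A level and −0.19 with the Dam-Lap2b level. The genes and sequences of these domains are not given here, since the reference tables at hand are of another genome build than the files.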

How the data were processed

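DamID libraries of mouse embryonic fibroblasts were used, 1 sample for each fusion, grouped as the labels' group field says. Each profile held log2 values per fragment as deposited, and each LAD list the start and end of domains, with no score. Reads were aligned with Bowtie to mm9, per the submitters' processing notes, which give no version. Counting, normalization and the domain caller are not given in the sources used here. Both profiles had the form of a constant (0.08 and 0.02) plus log2((fusion reads + 1)/(reference reads + 1)), as read from the values. Whole reads, the smallest that fit the pair of values of a feature (reference up to 5000), were recovered for 99.996% of features and describe depth only. Intervals reflect the number of domains only, and neither they nor the read numbers measure a difference between cell preparations.

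Coordinates are mm9, counted from 1. A bin of 10 kb took the features whose middle it held, at least 5, and belonged to a domain that held its middle. Edge means the outer 100 kb at each border, centre the middle 20% of the length, and a dip lies more than 50 kb inside. Shares of domains have exact Clopper-Pearson intervals and medians binomial order-statistic intervals, both at 95%. No test between groups was possible with 1 sample each. The named regions followed a rule: the 5 longest, the 3 highest and lowest in each profile, the 3 with the largest and smallest centre minus edge, the 3 least covered, the 5 widest dips and the 3 with most bins below 0 in both profiles. Members and rules were chosen with earlier results of these data known. Scripts were tested on simulated data and ran in Python 3.11.15 with numpy 2.4.6, pandas 2.3.3, scipy 1.17.1 and matplotlib 3.10.9.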

Additional observations from a re-analysis of the deposited data

How the results depend on the processing

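Of the results recomputed under other settings, 117 stayed within their 95% interval (counts within 1.5 times), 60 moved out of it and 1 reversed, and the cause was not tested. For bin shares that interval used the number of domains, since bins of 1 domain are not independent, and such wide intervals held shares that moved by over 1.5 times. At 1.5 Mb or longer there were 210 long LADs with 43.3% of the listed length and a Dam-Lap2b level of 1.52. At 800 kb the share was 61.5% and that level 1.43. With intervals under 25 kb apart merged, the share was 63.6%, the Dam-Lap2b level 1.40, the median cover 96.3% and the share covered to 90% was 74.7%. At 80% and 95% cover that share was 94.8% and 68.3%.

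Centre minus edge, Dam-Lamin A before Dam-Lap2b, was 0.43 and 0.39 with edges of 200 kb (88.4% of centres above the edge in Dam-Lamin A), 0.83 and 0.72 with edges of 50 kb, 0.73 and 0.69 from reads summed per bin, 0.42 and 0.42 on the list labelled Lap2b, and 0.63 for Dam-Lap2b with features weighted by length. Levels were 1.15 and 1.66 with that weighting, 1.52 and 1.71 from summed reads, and 1.47 and 1.56 on the list labelled Lap2b.

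Bins below 0 in Dam-Lamin A were 1.31% on the list labelled Lap2b. With a threshold of −0.5 bins below it were 1.36% and 0.123%, and with 0.5 they were 9.85% and 4.19%, and 3.23% in both. Within the interval, but over 1.5 times from the main share, were 6.36% in Dam-Lamin A with weighting by length, 1.32% with merging, 1.25% with 5 kb bins, 0.491% with weighting and 0.507% with bin medians in Dam-Lap2b, and 0.0794% at −0.5, 0.336% with weighting and 0.378% with bin medians in both. Domains with an internal dip, in Dam-Lamin A, Dam-Lap2b and both, were 53.0%, 19.2% and 16.2% with 20 kb bins, 92.7%, 76.2% and 57.3% with 5 kb bins, 86.9%, 33.8% and 26.5% with weighting by length, 44.8%, 11.3% and 9.15% for runs of at least 2 bins, 53.0%, 15.2% and 10.1% at −0.5, and 91.2%, 82.3% and 72.9% at 0.5. With bin medians they were 35.4% in Dam-Lap2b and 28.0% in both.

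Fragments of at least 18 bp had medians of 272.5 bp in long LADs, 278.25 bp in shorter LADs and 298 bp between LADs. The settings that follow, the summed reads above and the removal of features at 0 in all libraries, which moved nothing, were chosen after seeing the data. The profile difference was −0.64 in the proximal and, reversed, −0.23 in the distal 25% with weighting by length, −0.32 and 0.079 from summed reads, and −0.17 in the proximal 25% on the list labelled Lap2b. Its change from proximal to distal, 0.41, stayed between 0.40 and 0.44. No paired analysis was possible because each group had 1 sample. Depth limits single bins, and 1 library per fusion limits every comparison of the profiles.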
